A study of Mus musculus with 3 samples.

Results

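The 10 genes described here are p53 targets that act in stress responses and growth control: Sesn1, Sesn2, Ephx1, Zmat3, Trp53inp1, Phlda3, Ccng1, Btg2, Ptprv and Gdf15. They were chosen by name, and their probes are the non-control probes whose gene name in the scanner files is a member symbol or, for Zmat3 and Ptprv, the synonym Wig1 or Esp. All 10 were on the array, among 27537 gene labels, with 20 of 41174 probes. RNA of p53-null MEF, ES cells and MEF was hybridised with Cy3 to Agilent whole mouse genome arrays, 1 array for each kind of cell, so differences were described and none could be tested. MEF are embryonic fibroblasts of the mouse, while ES cells are a pluripotent cell type derived from the early embryo. All 3 samples carried the Nanog-GFP reporter. The series design calls the MEF wild type for p53. The labels give neither the p53 allele of the null cells, nor the p53 genotype of the ES cells, nor how many embryos or lines were used.

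p53 is a transcription factor that is stabilised by DNA damage and other stress and binds a response element made of paired half-sites near its target genes. Some targets stop the cell cycle or start apoptosis, while others adjust metabolism, antioxidant defence, growth signalling and translation, and many of these are transcribed at a basal level in unstressed fibroblasts. p53 is also known as a barrier to the reprogramming of fibroblasts into iPS cells.

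Slide and scan could not be told apart from the p53-null group, because the ES cell and MEF arrays shared a slide and a scan and the p53-null MEF array had its own. The median local background was 44 units there and 27 units on each of the other arrays. Signals are the deposited processed signals in arbitrary units, and differences and folds were taken after scaling. Between 26198 and 27954 of 43379 spots were well above background by the scanner software's mark, and none was saturated. A probe without that mark is called at background below. Trp53, the gene for p53, had 56.3 ± 3.85 units in p53-null MEF, 4902 ± 143 in ES cells and 1304 ± 29.8 in MEF (SD over 10 spots of 1 probe), and its log2 difference between p53-null MEF and MEF was -4.87. A second Trp53 probe differed by -1.46, and what the null allele lacks is not given. All 10 fibroblast markers were well above background on both fibroblast arrays, with a median signal of 26012 units in p53-null MEF, 384 in ES cells and 36036 in MEF, and 5 of the 10 were lower by 2-fold or more in p53-null MEF. ES cell markers were well above background for 2 of 9 in p53-null MEF, 9 of 9 in ES cells and 4 of 9 in MEF. Macrophage markers were so for 5 of 9, 4 of 9 and 8 of 9, with summed scaled signals of 572, 717 and 2790 units in the same order, most of it from Lyz2 in MEF, while the leukocyte gene Ptprc was at background in ES cells and MEF and had 37.4 units in p53-null MEF. Neural and glial markers were so for 4 of 5, 5 of 5 and 5 of 5, with summed scaled signals of 2685, 3480 and 5973 units, and 3 of the 5 were lower by 2-fold or more in p53-null MEF (median -1.71 on the log2 scale). Endothelial markers were so for 2 of 5, 4 of 5 and 3 of 5. The X-inactivation RNA Xist had 7437 units in p53-null MEF and stayed at background on the other arrays, and the Y-linked gene Ddx3y had 3.59 units in p53-null MEF, at background, 1479 in ES cells and 526 in MEF. Embryo sex, slide and genotype therefore cannot be told apart in any fibroblast comparison below.

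A gene is counted here as lower or higher from a 2-fold difference on, at its brightest probe. In p53-null MEF against MEF, 9 of the 10 genes counted as lower, 0 as higher, and Sesn1 as neither. Of all 17398 genes well above background on 1 or both of these arrays, 16.6% counted as lower and 18.6% as higher. The median log2 difference was -3.00 over the 10 genes and 0.03 over all genes. Fewer cells with a transcript and less of it per cell cannot be told apart in these bulk samples. Of the 20 probes, 16 counted as lower, 0 as higher and 4 as neither, where 16.6% of 26548 measured probes counted as lower. At a 3-fold threshold 8 genes counted as lower, against 7.81% of all genes, and at 1.5-fold 9 did, against 27.3%. With scaling on spike-in probes the median of all genes moved to 2.01, that of the 10 genes to -1.02, while 5 of them, Ccng1, Trp53inp1, Ephx1, Gdf15 and Ptprv, counted as lower and Sesn1 as higher. The distance between both medians, -3.03 on the log2 scale, is the same under both scalings by construction. The values below are log2 differences after each array was set to its 75th percentile. An error of ± 0.20 beside one is the SD that the scanner software's error model gives for the difference of bright signals, not a spread between samples. Distances in such SDs and orders of the 3 arrays below hold for this scaling, and some changed with spike-ins.

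**Figure D1:**
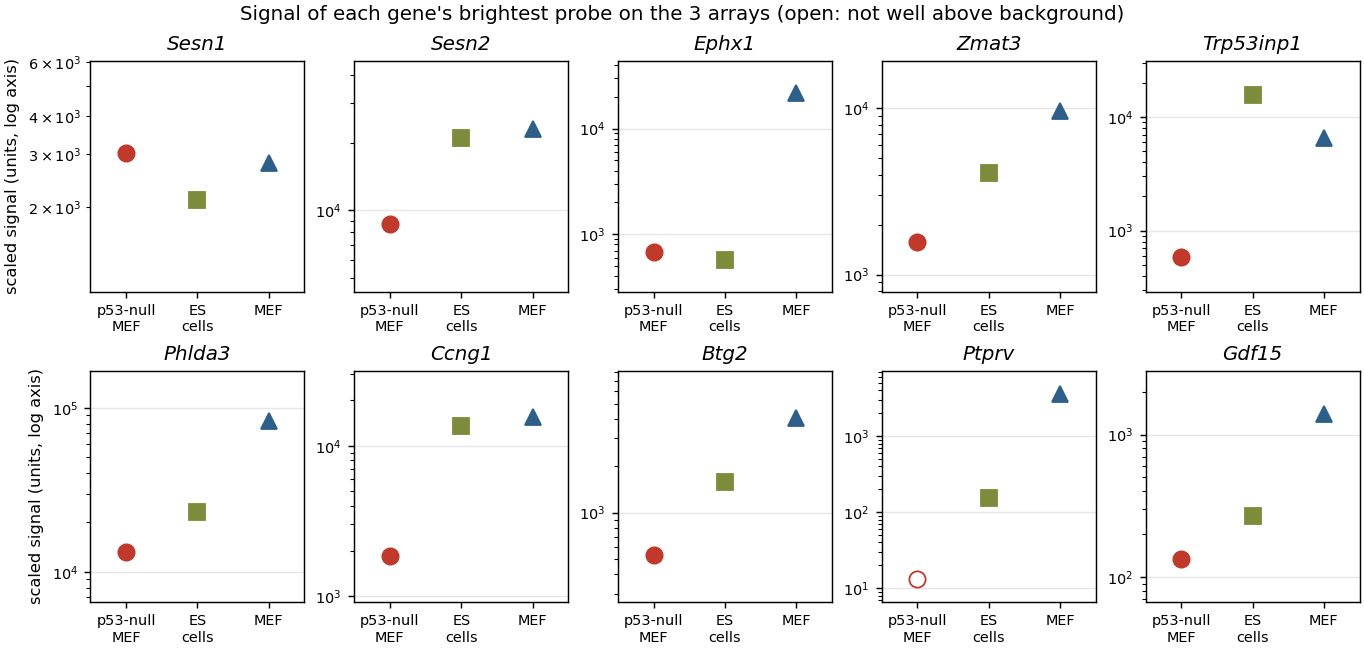
Scaled signal of the brightest probe of each gene (units, log axis; signal divided by the array's 75th percentile and multiplied by the mean of the 3 percentiles) in p53-null MEF, ES cells and MEF, 1 point per array. With this scaling MEF are highest for 8 genes and p53-null MEF lowest for 8, and both change for some genes with spike-ins. The open symbol marks Ptprv, at background in p53-null MEF. Levels are not comparable between panels.

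The genes of stress defence and metabolism included the smallest and one of the widest differences. Sesn1 and Sesn2 encode sestrins, stress-induced proteins that restrain the growth kinase complex mTORC1. At its brightest probe Sesn1 had 3491 units in p53-null MEF, 1959 in ES cells and 2566 in MEF, which is a log2 difference of 0.12 ± 0.20 between the fibroblast arrays. Neighbours in the order of these 3 levels lay within 2 error-model SDs of each other, while the lowest and the highest, ES cells and p53-null MEF, were -0.51 ± 0.20 apart (ES cells minus p53-null MEF). From the 5′ to the 3′ end of Sesn1, its 3 probes differed by -0.81, -0.35 and 0.12 between p53-null MEF and MEF. The first of them is placed across 4163 bases of chromosome 10 (mm8 41586815 to 41590977), although it has 60 bases itself. The brightest lies at 41596609 to 41596668. The dim 5′ probe had 89.5 units in p53-null MEF, 91.2 in ES cells and 125 in MEF.

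Sesn2 was 2.65-fold lower in p53-null MEF at its brightest probe, with 10031 units in p53-null MEF, 19385 in ES cells and 21198 in MEF, but was higher by 0.57 on the log2 scale with scaling on spike-ins. This probe lies on chromosome 4 at mm8 131764135 to 131764194. The other, 5′ of it at 131765019 to 131765078, gave 1021 units in p53-null MEF, 3529 in ES cells and 4228 in MEF, and was 5.20-fold lower in p53-null MEF. ES cells and MEF lay within 2 error-model SDs of each other at the brightest probe, with a log2 difference of -0.14 ± 0.20. At both sestrin genes the probe nearest the 3′ end gave the highest p53-null MEF minus MEF difference.

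Ephx1 encodes microsomal epoxide hydrolase, which hydrolyses reactive epoxides in the endoplasmic reticulum. Among the 10 genes it had the widest difference with a signal well above background on both fibroblast arrays. The 2 probes are shown because they gave this difference at separate places of the gene, mm8 182827133 to 182827192 and 182828626 to 182828685 on chromosome 1.
Ephx1 probe A_51_P508289: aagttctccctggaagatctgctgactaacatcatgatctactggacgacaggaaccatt
Ephx1 probe A_52_P416072: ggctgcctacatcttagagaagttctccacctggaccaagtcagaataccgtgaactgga
The first gave 787 ± 78.8 units in p53-null MEF, 529 ± 52.9 in ES cells and 20068 ± 2007 in MEF (error model), so that p53-null MEF were 32.0-fold and ES cells 38.2-fold lower than MEF. The second gave 528 units in p53-null MEF, 385 in ES cells and 16084 in MEF, with folds of 38.2 and 42.0 in the same order. Ephx1 was thus high in MEF alone, and the p53-null MEF and ES cell levels lay within 2 error-model SDs of each other (-0.26 ± 0.20, ES cells minus p53-null MEF). This nearness depends on the scaling. With spike-ins, p53-null MEF were at -3.02 and ES cells at -5.02 on the log2 scale against MEF.

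The genes of RNA binding, cell death and growth signalling were lower in p53-null MEF by 6.10-fold to 11.2-fold at their brightest probes. Zmat3, which encodes a zinc finger protein that binds RNA, had 1824 units in p53-null MEF, 3777 in ES cells and 8861 in MEF. All 3 levels were further apart than 2 error-model SDs, and p53-null MEF were 6.10-fold lower than MEF. A second probe carries the name Zmat3 only in the newer design file, and lies about 28.0 kb from the first. It gave 18.2 units in p53-null MEF, 22.7 in ES cells and a signal at background in MEF, and so gives only bounds, of 0.23 for p53-null MEF and 0.87 for ES cells on the log2 scale.

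Trp53inp1 encodes a stress-induced nuclear protein that cooperates with p53 in cell death and takes part in autophagy. It was the only one of the 10 with its highest level in ES cells. Its brightest probe, on chromosome 4 at mm8 11101174 to 11101233, gave 673 units in p53-null MEF, 14307 in ES cells and 5997 in MEF. p53-null MEF were 11.2-fold lower than MEF, and ES cells were higher than MEF by 1.25 ± 0.20 on the log2 scale. The second probe, at 11098180 to 11098239, gave 104, 1945 and 650 units in p53-null MEF, ES cells and MEF, which is 7.86-fold lower and 1.57 higher on the log2 scale. This probe is made of a tandem repeat, whose unit is given here in capitals because it bears on what the probe measures.
Trp53inp1 repeat unit: AGTACTAATACTTACCACAGCAGGCG
The unit of 26 bases stands 2 times in full in the probe of 60 bases and occurs in 0 other probes, and 12 of 41174 probes repeat themselves in this way (a period of 10 to 30 bases with at most 1 mismatch). Both Trp53inp1 probes ranked the 3 arrays alike.

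Phlda3 encodes a small protein with a pleckstrin homology domain that competes with the kinase Akt for membrane lipids. Its single probe gave 15149 units in p53-null MEF, 21384 in ES cells and 76927 in MEF. p53-null MEF were 6.37-fold and ES cells 3.62-fold lower than MEF, and the 3 levels were further apart than 2 error-model SDs. The probe lies on chromosome 1 at mm8 137585476 to 137585535.

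**Figure D2:**
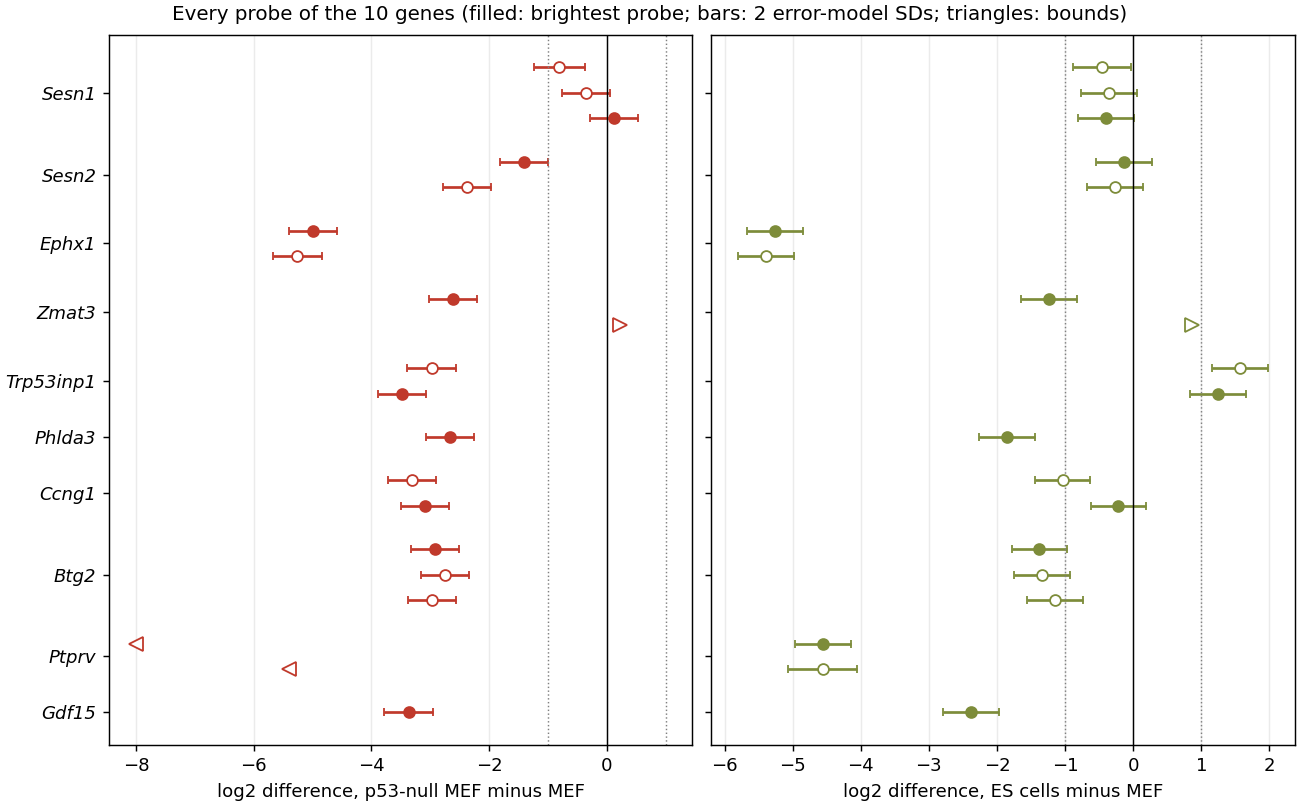
Log2 difference of every probe of the 10 genes, p53-null MEF minus MEF (left) and ES cells minus MEF (right), with bars of 2 error-model SDs, filled points for the brightest probe and triangles for bounds. In p53-null MEF the probes of every gene but Sesn1 and the dim Zmat3 probe lie below -1, while in ES cells they spread from Ephx1 near -5 to Trp53inp1 above 1.

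The genes that restrain the cell cycle were lower in p53-null MEF by 7.59-fold or more at their brightest probes. Ccng1, which encodes cyclin G1, a partner of the phosphatase PP2A, had 2127 units in p53-null MEF, 12440 in ES cells and 14368 in MEF at that probe. p53-null MEF stood apart from both others, at 8.48-fold below MEF, and ES cells and MEF lay within 2 error-model SDs of each other (-0.22 ± 0.20). The second probe, on chromosome 11 at mm8 40592348 to 40592407, gave 2178, 8488 and 17281 units in p53-null MEF, ES cells and MEF. There p53-null MEF were 9.96-fold and ES cells 2.05-fold lower, so the ES cell difference depends on the probe.

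Promoter windows of 300 bases were at hand for 7 of the 10 genes, 9 windows in all (250 bases before to 50 after a RefSeq start, GRCm38.p6), and were searched for the p53 half-site consensus. The consensus is its own reverse complement, so a search of 1 strand covers both. It was found in 2 of 9 windows, against 8.36% of 32851 windows of all genes. The window of Ccng1 also held 2 adjacent half-sites matching the consensus at 19 of 20 positions, beginning 195 bases before the start. Such a pair, with at most 1 mismatch and the C and G of both cores in place, stood in 0.067% of all windows, and it contains the half-site counted above. The stretches with a match are shown for Ccng1 (chr11:40755317-40755536, minus strand) and for the downstream start of Sesn1 (chr10:41887189-41887408, plus strand), with the match in capitals.
Ccng1 upstream stretch: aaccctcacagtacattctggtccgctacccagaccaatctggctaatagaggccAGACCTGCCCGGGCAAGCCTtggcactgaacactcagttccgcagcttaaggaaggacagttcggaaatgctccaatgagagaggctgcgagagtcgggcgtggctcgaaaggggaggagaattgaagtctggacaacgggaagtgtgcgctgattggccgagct
Sesn1 upstream stretch: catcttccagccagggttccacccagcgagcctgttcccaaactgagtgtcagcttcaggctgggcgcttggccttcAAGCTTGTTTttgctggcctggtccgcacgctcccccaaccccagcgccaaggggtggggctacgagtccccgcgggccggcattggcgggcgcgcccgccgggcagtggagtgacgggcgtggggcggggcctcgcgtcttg
At their brightest probes Ccng1 was lower by 8.48-fold in p53-null MEF and Sesn1 was not lower. The windows of Sesn2, Ephx1, Phlda3, Gdf15 and Btg2 held no match to these letters. A match is a description of letters and not of binding.

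Btg2 encodes an antiproliferative protein that recruits the CCR4-NOT deadenylase to mRNAs. Its brightest probe, on chromosome 1 at mm8 135891928 to 135891987, gave 616 units in p53-null MEF, 1445 in ES cells and 3727 in MEF. The 3 levels were further apart than 2 error-model SDs, and p53-null MEF were 7.59-fold and ES cells 2.59-fold lower than MEF. Over its 3 probes the log2 differences ran from -2.98 to -2.75 for p53-null MEF and from -1.38 to -1.15 for ES cells. Over all genes with several measured probes the median range between probes was 0.64 for p53-null MEF (5593 genes) and 0.47 for ES cells (5452 genes). The Btg2 probes, which lie between mm8 135891928 and 135894074, thus gave nearly the same difference.

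Ptprv encodes a receptor-type tyrosine phosphatase known in mouse as a p53 target in cell cycle arrest. The RefSeq table of GRCm38.p6 lists it as a transcribed pseudogene. Its 2 probes are shown because they gave the largest difference among the 10 genes and the only p53-null MEF signals at background.
Ptprv probe A_51_P150653: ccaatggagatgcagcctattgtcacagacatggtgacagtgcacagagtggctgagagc
Ptprv probe A_52_P616544: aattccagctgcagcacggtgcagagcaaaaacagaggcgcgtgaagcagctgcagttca
The first, on chromosome 1 at mm8 136926016 to 136926075, gave 15.4 units in p53-null MEF, 141 in ES cells and 3285 in MEF. The p53-null MEF signal was at background, so a bound was taken against the dimmest signal counted as measured on that array, and p53-null MEF were at least 257-fold lower than MEF. This bound of -8.01 on the log2 scale was -5.68 with normexp background correction and -6.03 with scaling on spike-ins. ES cells were 23.4-fold lower than MEF at this probe. The second, placed across 787 bases at 136927831 to 136928617, gave 4.13 units in p53-null MEF, 23.0 in ES cells and 537 in MEF, which is at least 42.1-fold and 23.5-fold lower. Both probes thus put ES cells between the fibroblast samples.

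Gdf15 encodes a secreted member of the TGF-beta superfamily that is released by stressed cells. Its single probe, on chromosome 8 at mm8 73558561 to 73558620, gave 155 ± 15.9 units in p53-null MEF, 247 ± 24.8 in ES cells and 1279 ± 128 in MEF (error model). p53-null MEF were 10.3-fold and ES cells 5.21-fold lower than MEF, and the p53-null MEF and ES cell levels were 0.99 ± 0.21 apart on the log2 scale.

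In ES cells against MEF, 6 of the 10 genes counted as lower, 1 as higher and 3 as neither. Of all 18745 genes well above background on 1 or both of these arrays, 27.1% counted as lower and 32.7% as higher. The median log2 difference was -1.31 over the 10 genes and 0.20 over all genes. At a 3-fold threshold 4 counted as lower, against 19.6% of all genes, and at 1.5-fold 6 did, against 34.0%. Of the 20 probes, 11 counted as lower and 2 as higher, where 26.3% of 28504 measured probes counted as lower and 33.6% as higher. The 6 genes lower by 2-fold were Ephx1, Ptprv, Gdf15, Phlda3, Btg2 and Zmat3, the higher one was Trp53inp1, and Sesn1, Sesn2 and Ccng1 were neither. With the mean of all probes or the median probe, which bring in its dim second probe, the Zmat3 difference was -0.04 and no longer counted as lower. This comparison shares the MEF array with the one above, so a high MEF signal lowers both differences at once. Trp53 itself was higher in ES cells than in MEF by 1.90 on the log2 scale at its brighter probe and lower at the other, at -0.92.

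Of the 10 genes, 7 had the order p53-null MEF, ES cells, MEF from low to high at their brightest probe, an order that 8.97% of 19155 genes well above background on 1 or more arrays had. They were Sesn2, Ccng1, Zmat3, Phlda3, Gdf15, Btg2 and Ptprv. This order has p53-null MEF below MEF, so its count partly restates the fibroblast comparison above. After percentile scaling, all 7 separated p53-null MEF from ES cells by more than 2 error-model SDs, which do not cover the choice of scaling. Of them, 5 also separated ES cells from MEF in that way, the exceptions being Sesn2 and Ccng1. Between ES cells and p53-null MEF directly, 11 of the 20 probes counted as higher in ES cells and 0 as lower after percentile scaling. Of 28144 measured probes, 27.3% counted as higher and 22.7% as lower. These counts were not taken with spike-ins and depend on the scaling. With spike-ins, the brightest probes of Sesn2, Zmat3, Phlda3, Gdf15 and Btg2 were lower in ES cells than in p53-null MEF. Those of Ccng1 and Ptprv stayed higher.

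**Figure D3:**
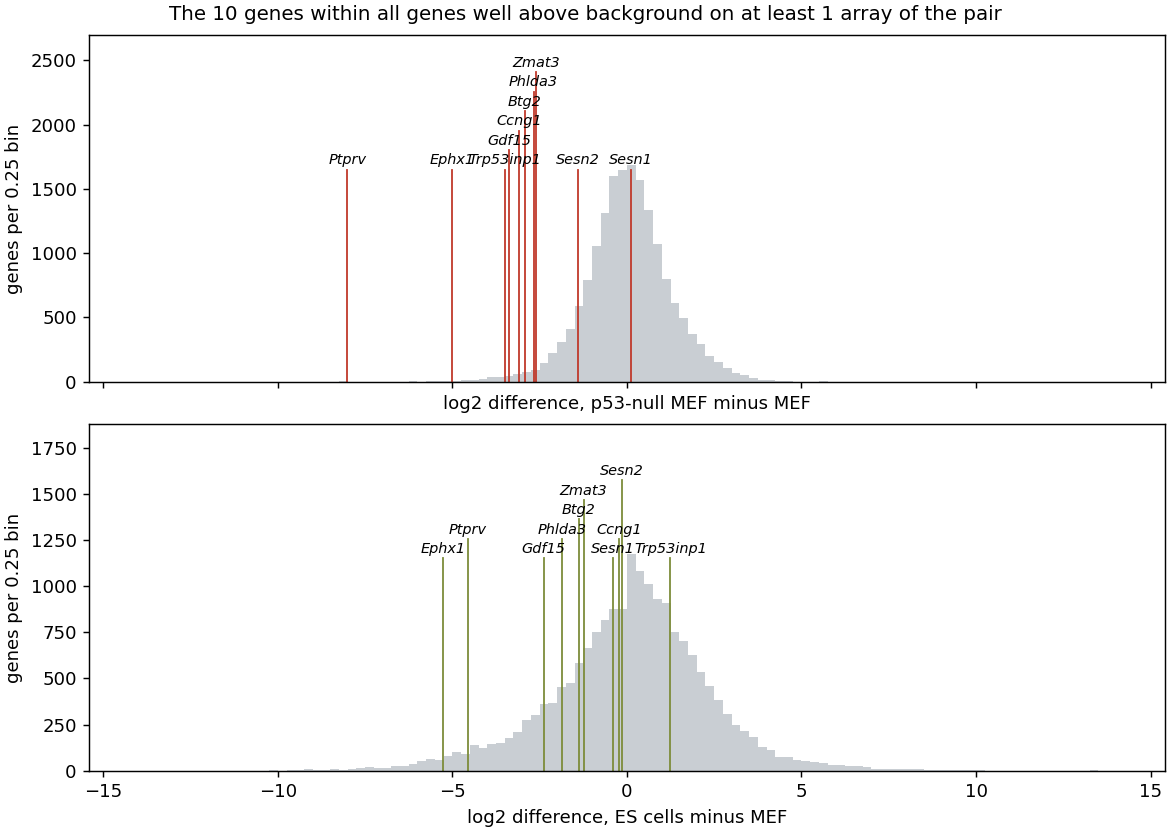
Number of genes per log2 difference bin (grey), p53-null MEF minus MEF (top) and ES cells minus MEF (bottom), with a line at the value of each of the 10 genes, Ptprv in the top panel being a bound. Against the fibroblast distribution, centred at 0.03, 8 of the 10 lie below -2.5, and in ES cells the 10 are spread across a wider distribution.

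The genes nearest to Ephx1 in both differences were sought among 12355 other genes matched to RefSeq and well above background on all 3 arrays. Among the 5 nearest were Ppp1r3c, which encodes a glycogen-targeting phosphatase subunit, at a distance of 0.61 on the log2 scale, the lysozyme gene Lyz2 at 0.75, Cdkn1a at 0.86 and Serpine2, a protease inhibitor gene, at 0.92. Lyz2, which is also on the macrophage marker list, had 126 units in p53-null MEF, 62.2 in ES cells and 1980.4 in MEF. This likeness rests on 3 arrays.

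Among other genes that p53 is known to activate, 27 of 49 measured counted as lower in p53-null MEF against MEF, 4 as higher and 18 as neither, with a median log2 difference of -1.30. Of all genes, 16.6% counted as lower and 18.6% as higher. With scaling on spike-ins the median of these p53-activated genes was 0.65, where that of all genes was 2.01. Cdkn1a, the gene of the CDK inhibitor p21, had 335 units in p53-null MEF, 524 in ES cells and 13478 in MEF. Dglucy had 40.9 units in p53-null MEF, 408 in ES cells and 2874 in MEF, and Perp, a gene of p53-dependent apoptosis and cell adhesion, had 622, 6308 and 13926 in the same order. Eda2r, a death-domain receptor gene of the TNF receptor family, was at background in p53-null MEF at all of its 3 probes, and at the brightest it had 14.3 units in p53-null MEF, 1409 in ES cells and 833 in MEF. These 4 genes were 50.5-fold (Cdkn1a), 88.2-fold (Dglucy), 28.1-fold (Perp) and at least 65.2-fold (Eda2r) lower in p53-null MEF. Tap1, a peptide transporter gene of antigen presentation, had 9.71 units in p53-null MEF, at background, 39.6 in ES cells and 431 in MEF. Mdm2, the ubiquitin ligase gene of p53, was lower by 2.33-fold at its brightest probe and by 10.8-fold at the other, and its brightest probe was higher by 0.76 on the log2 scale with scaling on spike-ins. In ES cells against MEF, 17 of the 49 counted as lower, 9 as higher and 23 as neither, with a median of -0.17. Of all genes, 27.1% counted as lower and 32.7% as higher in that comparison, with a median of 0.20.

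Of 23 relatives of the 10 genes by sequence family, 17 were measured between the fibroblast arrays, with 3 counted as lower, 1 as higher, 13 as neither and a median log2 difference of -0.65. Of all genes, 16.6% counted as lower and 18.6% as higher between these arrays. Sesn3, the third sestrin, differed by -0.83 at its brightest probe and -1.17 at another. Ccng2, which encodes cyclin G2, had 4389 units in p53-null MEF, 1054 in ES cells and 7600 in MEF, a difference of -1.12 between the fibroblast arrays. Btg1 differed by -0.68 and Btg3 by 0.84, and Btg4 was not well above background on any array. Phlda1 differed by 0.91, and Phlda2, an imprinted placental growth gene, had 649 units in p53-null MEF, 12698 in ES cells and 57.5 in MEF, a difference of 3.17. Ephx2, the soluble epoxide hydrolase gene, had 275 units in p53-null MEF, 2683 in ES cells and 1902 in MEF, 8.66-fold lower in p53-null MEF. Trp53inp2, just short of 2-fold lower, had 11973 units in p53-null MEF, 2066 in ES cells and 19059.6 in MEF, and Tob1, of the Btg family, differed by -1.46. The p53-null MEF differences of Phlda3 and Phlda2 thus had opposite signs, and so did those of Btg2 and Btg3. With scaling on spike-ins, which adds a constant to every gene, the median of the relatives was 1.33 and that of the Nrf2 genes below 1.61, so the sign of small differences depends on the scaling.

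Sesn2 and Gdf15 are also known targets of the stress factor Atf4, and Ephx1 of the antioxidant factor Nrf2. The counts of these lists stand beside 16.6% of all genes lower and 18.6% higher in p53-null MEF against MEF. Of 22 Atf4 and integrated stress response genes, 3 counted as lower in p53-null MEF, 3 as higher and 16 as neither, with a median of 0.21. The lower ones were Vldlr, Ppp1r15a and Atf5, at -1.79, -1.50 and -1.15, and the higher ones Slc7a11, Mthfd2 and Phgdh, at 2.17, 1.33 and 1.03, Phgdh being named after its value was seen. Of 25 Nrf2 antioxidant and detoxification genes, 8 counted as lower, 1 as higher and 16 as neither, with a median of -0.37. The glutathione transferase genes Gsta1 and Gsta2, which are near-identical so that their probes may share RNA, were both at -3.19, and Cbr3, a carbonyl reductase gene, was at -2.50. Of 24 genes of the TOR, AMPK and Akt pathways, on which sestrins and Phlda3 act, 0 counted as lower, 4 as higher and 20 as neither, with a median of 0.09. The 4 were Rictor, Seh1l, Mios and Rps6kb1, at 1.63, 1.18, 1.17 and 1.12, and another Seh1l probe was at -0.32. In ES cells against MEF the Atf4, Nrf2 and TOR lists had medians of -0.94, -0.56 and 0.19. Of 11 genes of p53 and its regulators, 3 counted as lower in p53-null MEF and 4 as higher, led by the checkpoint kinase gene Chek1 at 3.80.

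**Figure D4:**
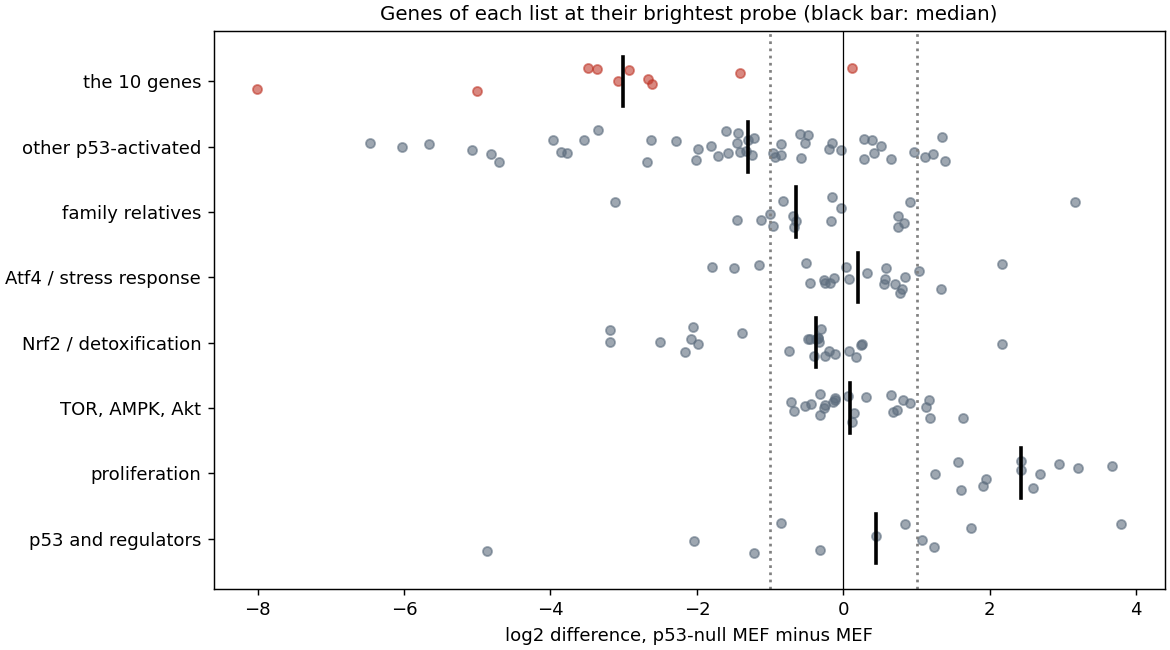
Log2 difference of each measured gene, p53-null MEF minus MEF, at its brightest probe, for the 10 genes (red) and 7 other lists (grey), with the median as a black bar and dotted lines at 2-fold. The median is -3.00 for the 10 genes, -1.30 for other p53-activated genes and 2.43 for proliferation genes; Slc7a11, Mdm2, Trp73 and Tob1 stand in 2 lists each.

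Proliferation genes differed between the arrays in the opposite direction to most of the 10 genes. All 12 on the list counted as higher in p53-null MEF against MEF, with a median log2 difference of 2.43, and all 12 were so in ES cells, with a median of 3.33. Of all genes, 18.6% counted as higher in p53-null MEF and 32.7% in ES cells. The proliferation marker Mki67 had 38308 units in p53-null MEF, 26676 in ES cells and 2388 in MEF. The part of proliferation, macrophage RNA, neural and glial RNA, embryo sex and slide in the differences of the 10 genes was not tested.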

How the data were processed

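Per the file headers, the authors read the 1-colour arrays with Agilent Feature Extraction 9.5.3.1, and the deposited processed signal is a linear intensity after background subtraction and detrending within the array. The deposited value table held the same intensities for 45018 features, within ratios of 0.995 to 1.005, with column medians of 51.8 (p53-null MEF), 50.0 (ES cells) and 43.2 (MEF) and no log scale or centring.

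Here 1639 control spots and 62 to 192 spots marked as outliers per array were left out. Log2 signal minus the array's 75th percentile was averaged per probe, and the brightest probe stood for a gene. A probe counted as well above background from 50% of its spots on. Where 1 array was not, the difference was taken as a bound. Of 41174 probes, 33102 were matched to RefSeq names (GRCm38.p6). Positions are mm8, from the newer design file. With 1 array per group there was no test. The number of arrays limits precision, and probes printed at 10 spots had a median spot SD of 3.49% to 4.16%. Exon or untranslated region was not determined. The 10 genes and the lists were chosen with earlier results of these data known. Of listed genes, those named were fixed ones (Trp53, Cdkn1a, Mdm2 and the close relatives) and up to 5 per list with the widest difference. Alternatives used limma 3.58.1 in R 4.3.3 for normexp (offset 50), quantile and cyclic loess normalization. The scaling and bounds were tested on simulated data. One of the 5 genes nearest to Ephx1 is not reported here.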

Additional observations from a re-analysis of the deposited data

How the results depend on the processing

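Results were recomputed under 10 alternatives: normexp correction, median scaling, quantile normalization, cyclic loess, no scaling, spike-in scaling, no filter on dim probes, the mean of all probes, the median probe and the deposited value table. Those for Trp53, Cdkn1a, Mdm2 and the list medians were added after seeing the data. For p53-null MEF against MEF, 9 of 10 genes counted as lower (from 2-fold on) in each of these except spike-in scaling, where 5 did. The median of -3.00 became -2.68 without scaling, where the median of all genes was 0.36, and -1.02 with spike-ins, where it was 2.01. Spike-in scaling also turned Sesn2 to 0.57, Mdm2 to 0.76 and the median of other p53-activated genes to 0.65. It put ES cells below p53-null MEF for Sesn2, Zmat3, Phlda3, Gdf15 and Btg2. It used 207 of 320 spike-in spots, and nothing here settles whether spike-ins or the percentile are the better base. For ES cells against MEF, 6 genes counted as lower, or 5, without Zmat3 at -0.04, with the mean of all probes or the median probe. The median of -1.31 became -1.53 with median scaling, -1.07 with spike-ins, -0.96 with the mean of all probes and -0.98 with the median probe. Zmat3 in p53-null MEF was -1.04 with the mean of all probes or the median probe. Over all genes, 2895 counted as lower and 3233 as higher in p53-null MEF, against 1892 and 2081 with normexp, 1906 and 4700 without scaling, and 273 and 13707 with spike-ins. No paired analysis was possible because each group has 1 array and the labels carry no shared replicate number. Leaving out a replicate was not possible for the same reason. Signals near background, as for Ptprv in p53-null MEF, give only a bound, which normexp moved to -5.68.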
